A study of Saccharomyces cerevisiae with 7 samples.

Results

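The cytochrome bc1 complex was examined through the yeast genes that encode its nuclear subunits, COR1, QCR2, QCR6, QCR7, QCR8, QCR9, QCR10, RIP1 and CYT1, which were picked out on the array by gene symbol. Of these 9 genes, 8 had a probe in the annotation of the array, each with 1 spot, out of 5470 genes measured. QCR10 was not analysed here, nor was COB, the mitochondrial gene for cytochrome b. The samples were total RNA of Saccharomyces cerevisiae taken over 20.5 h of growth on glucose, at 0, 9.5, 11.5, 13.5, 15.5, 18.5 and 20.5 h, with 1 array of 2 channels for each time. Density went up from 0.14 OD at 0 h to 0.46, 0.8, 1.8, 3.7, 6.9 and 7.3 OD at the later times, and glucose in the medium stood at 19, 18.7, 17.6, 14, 7.5, 0.2 and 0 g/L. The other channel of every array held RNA of the 0.14 OD culture with 19 g/L glucose, so the 0 h array set like against like. The labels used here name neither the strain nor the number of flasks.

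The bc1 complex, also called complex III, takes electrons from ubiquinol and hands them to cytochrome c while moving protons across the inner mitochondrial membrane. Cytochrome b, cytochrome c1 and the Rieske iron-sulphur protein carry the electrons, and the remaining subunits hold the enzyme together and guide its assembly. Budding yeast ferments glucose and represses its respiratory genes while the sugar lasts, then respires the ethanol it has made, so the complex is one of those the cell needs after the sugar is gone.

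All values are log2 ratios of the culture over the reference after each array was centred on its own median, so 1 means 2-fold higher than the reference, relative to the median probe of that array. That direction, culture over reference, is the likely one given the order of the channels, though no label states it. RNA of a whole culture cannot tell apart more cells making a transcript and more transcript per cell. With 1 array per time the only repeated measurement is that of genes with several spots, whose SD within an array was 0.19 at 13.5 h, the lowest, and 0.45 at 18.5 h, the highest.

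All 8 measured genes rose over the course as glucose was used up, but not by the same amount or in the same steps. Their ratios lay between -0.27 and 0.59 through 11.5 h, and at 20.5 h they lay between 0.80 and 2.81 with a median of 2.38. Of the 7 genes with a value on every array, 7 rose with the share of glucose consumed (limma, Benjamini-Hochberg adjusted p under 0.05), where 19.5% of the 4807 genes tested did so. QCR6, blank at 13.5 h, rose as well in a fit that allows blanks, in which 19% of genes did. QCR7, QCR6, CYT1, RIP1, COR1 and QCR8 had fitted changes between 1.48 and 2.48, whereas QCR2 and QCR9 had 0.69 and 0.59.

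**Figure D1:**
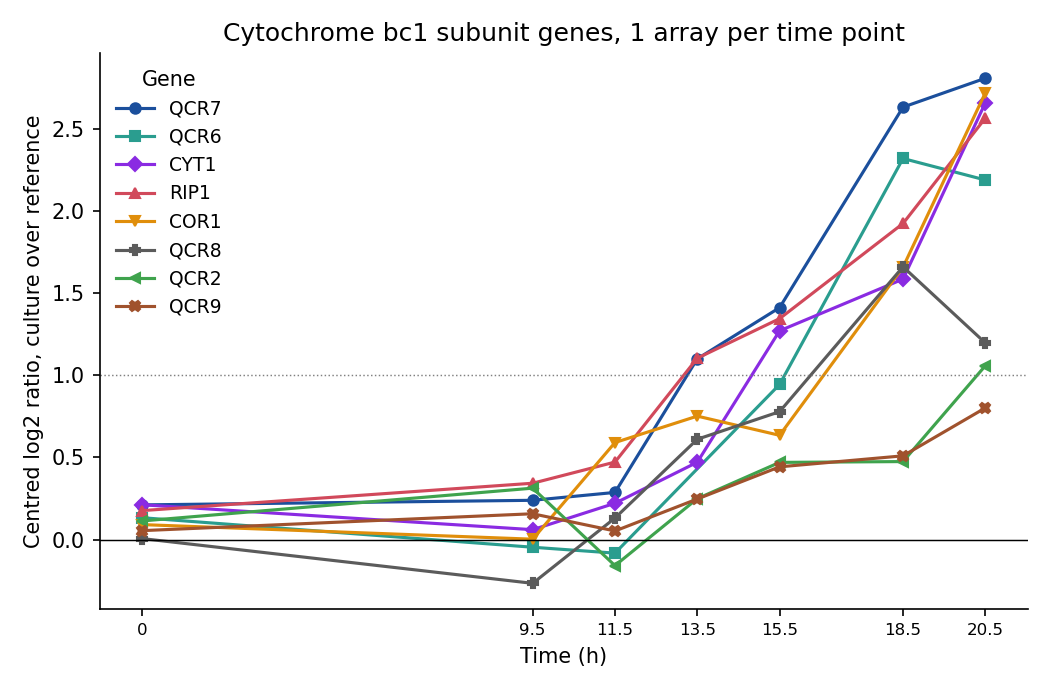
Centred log2 ratio of culture over reference (vertical axis) against time in hours for the 8 measured subunit genes, 1 point per array, with the dotted line at 2-fold. QCR6 has no point at 13.5 h. The lines lie between -0.27 and 0.59 up to 11.5 h, and at 20.5 h QCR9 (0.80) and QCR2 (1.06) lie lowest while QCR7 (2.81) lies highest.

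Of the electron-carrying subunits, CYT1 (YOR065W), which encodes cytochrome c1, had ratios of 0.21, 0.060, 0.22, 0.47, 1.27, 1.59 and 2.66 on the 7 arrays from 0 h to 20.5 h. It passed 2-fold at 15.5 h, while 7.5 g/L glucose was left, and was 6.32-fold above the reference at the end. Its fitted change over the whole range of glucose was 2.05 ± 0.28 (SE, 7 arrays; limma adjusted p = 5.02e-04). RIP1 (YEL024W), the gene of the Rieske protein, stood at 0.18, 0.34, 0.47, 1.10, 1.35, 1.93 and 2.57 in the same order of times. Each value was above the one before it, and the gene had passed 2-fold at 13.5 h. Its fitted change was 1.93 ± 0.23 (limma adjusted p = 2.92e-04). The slopes of CYT1 and RIP1 differed by 0.11 ± 0.25 (SE, 7 arrays), with a 95% interval from -0.52 to 0.75.

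The core proteins parted ways. COR1 (YBL045C) and QCR2 (YPR191W) encode the pair of large subunits that face the matrix, relatives of the peptidase that trims imported proteins. COR1 had ratios of 0.091, 0.002, 0.59, 0.75, 0.64, 1.66 and 2.72 from 0 h to 20.5 h. Its ratio was flat between 11.5 and 15.5 h, and most of its change lay in the last 2 arrays. COR1 rose by a fitted 1.93 ± 0.35 (limma adjusted p = 0.00206), and by 1.34 when the 20.5 h array was left out. QCR2 had 0.11, 0.31, -0.16, 0.25, 0.47, 0.47 and 1.06 over the same times. Only its last value was past 2-fold, and before it the gene never stood above 0.47. QCR2 rose by 0.69 ± 0.23 (limma adjusted p = 0.0383), a call lost on omitting 0 h (adjusted p = 0.0867), 11.5 h (0.0844), 13.5 h (0.0653) or 20.5 h (fitted change 0.43, adjusted p = 0.199). The slope of COR1 was larger than that of QCR2 by 1.24 ± 0.43 (95% interval 0.14 to 2.34, 7 arrays).

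Among the small subunits QCR7 changed most. QCR7 (YDR529C), which encodes a matrix-side subunit bound to cytochrome b, had ratios of 0.21, 0.24, 0.29, 1.10, 1.41, 2.63 and 2.81 from 0 h to 20.5 h. It passed 2-fold at 13.5 h together with RIP1, and from then on it was higher than at least 98.8% of all genes on every array. Its fitted change of 2.48 ± 0.21, or 5.58-fold, ranked 57 of 4807 genes (limma adjusted p = 9.01e-05). QCR6 (YFR033C), which encodes an acidic subunit near cytochrome c1, was at 0.13, -0.047 and -0.083 on the first 3 arrays and at 0.94, 2.32 and 2.19 on the last 3. Its largest step lay between 15.5 and 18.5 h, and it rose by 2.27 ± 0.23 (SE, 6 arrays; limma adjusted p = 2.43e-04). QCR8 (YJL166W), a partner of QCR7 at cytochrome b, was at 0.006, -0.27, 0.13, 0.61, 0.78, 1.66 and 1.20. Its highest ratio was that at 18.5 h, not the last. QCR8 rose by 1.48 ± 0.22 (limma adjusted p = 8.24e-04).

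QCR9 (YGR183C), which encodes a small membrane-spanning subunit, changed least. Its ratios were 0.054, 0.16, 0.052, 0.25, 0.44, 0.51 and 0.80 from 0 h to 20.5 h, so it never reached 2-fold. The fitted change was 0.59 ± 0.18 (limma adjusted p = 0.0285). Without the 0 h (adjusted p = 0.0911), 9.5 h (0.0633), 11.5 h (0.0554), 13.5 h (0.0518) or 20.5 h array (0.105) the call of QCR9 was lost, and with arrays centred within runs of 40 probe IDs the change was 0.46 (adjusted p = 0.117).

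**Figure D2:**
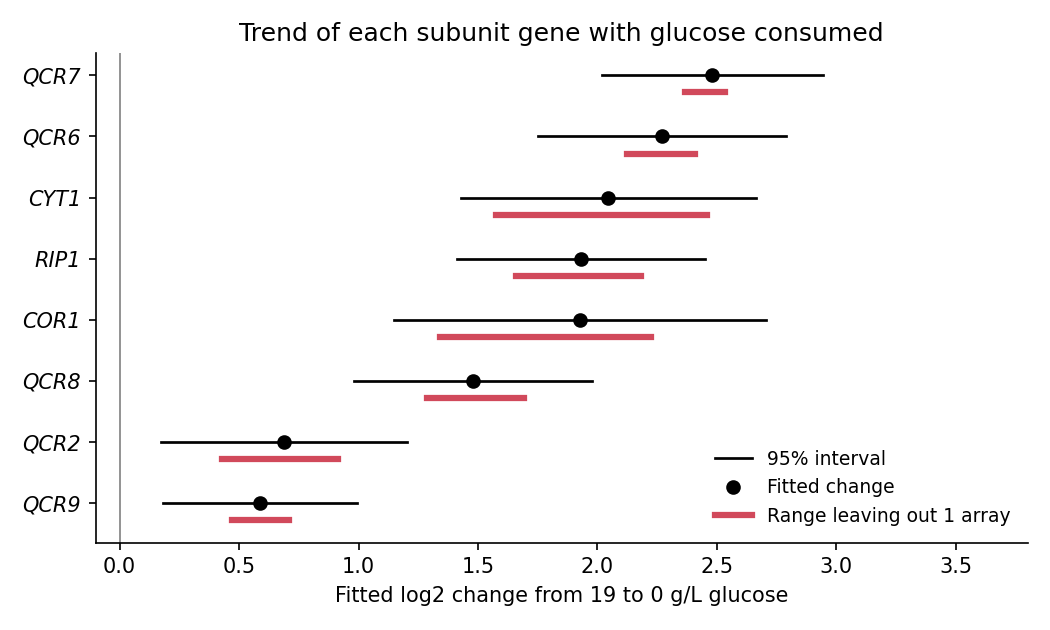
Log2 change fitted over the range of glucose, 19 to 0 g/L (horizontal axis), for each subunit gene, with black lines for the 95% interval and red bars for the range of values when 1 array at a time is left out. QCR7 (2.48) is highest, and the intervals of QCR2 and QCR9 end at 1.20 and 0.99 while that of QCR7 begins at 2.02.

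In order of fitted change the genes ran QCR7, QCR6, CYT1, RIP1, COR1, QCR8, QCR2 and QCR9. Differences were read from the slope of the per-array difference between members, with intervals not adjusted for the number of pairs. Effects shared by all spots of an array cancel in that difference, and effects on single spots do not. Of 28 pairs, 14 had a 95% interval that left out 0, and 11 of those 14 set QCR2 or QCR9 against one of the other 6 genes, out of 12 such pairs. The exception was QCR8 minus QCR2, at 0.79 with an interval from -0.26 to 1.84. QCR2 and QCR9 were set apart because their fitted changes in these same values were smallest, which favours a high count. QCR7 exceeded QCR9 by 1.89 ± 0.17 (SE, 7 arrays), the widest gap, and leaving out 1 array gave 1.79 to 1.95. For all 7 pairs of neighbours in the order the interval held 0, as for QCR2 and QCR9 (0.10, interval -0.26 to 0.47), so neighbours did not differ beyond their spread. QCR7 also exceeded RIP1 by 0.55 (interval 0.11 to 0.99) and QCR8 by 1.001 (0.39 to 1.62), and QCR6 exceeded QCR8 by 0.75 (0.064 to 1.43).

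The mean of the members was already up while glucose was plentiful. For the 7 genes without a blank it was 0.12 at 0 h and 0.65 at 13.5 h, with 14 g/L left. At 13.5 h these genes ran from QCR9 at 0.25 to RIP1 at 1.10. All 7 were above the reference, but so were all 8 members at 0 h, so the sign by itself shows no rise. QCR2 was lower at 13.5 h (0.25) than at 9.5 h (0.31). At 13.5 h 2 genes, RIP1 and QCR7, were at least 2-fold higher than the reference, against 1.55% of all genes. Relative to the 0 h array, where both stood at about 0.2, 0 genes were 2-fold higher at 13.5 h. At 15.5 h the count of genes at least 2-fold higher was 3 of 8, against 3.44% of all genes, and CYT1 had joined. At 18.5 h it was 6 of 8 against 11.6%, and at 20.5 h 7 of 8 against 10.8%, all but QCR9. On the 3 arrays before 13.5 h it was 0 of 8, against 0.0367% of all genes at 0 h, 0.498% at 9.5 h and 0.603% at 11.5 h.

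**Figure D3:**
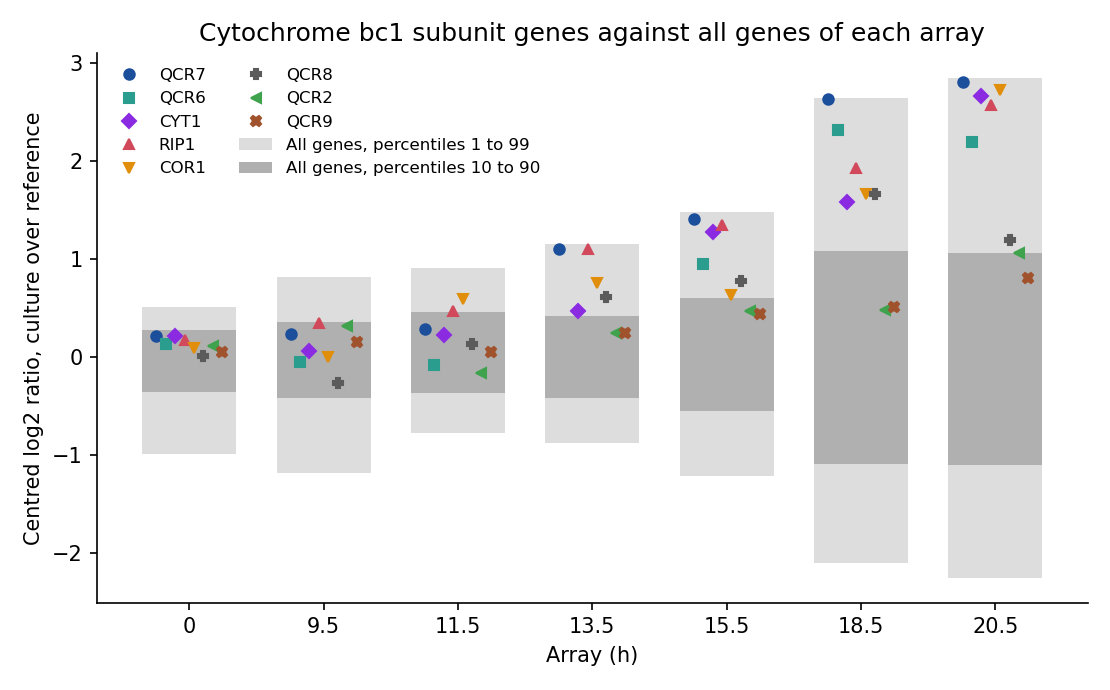
Centred log2 ratio of culture over reference (vertical axis) on each array (horizontal axis, hours), with 1 symbol per subunit gene over grey bars for percentiles 1 to 99 and 10 to 90 of all genes on that array. From 13.5 h on most subunit genes lie above the 90th percentile bar, which ends at 0.42 at 13.5 h and 1.06 at 20.5 h, and QCR2 and QCR9 stay within it on every array.

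Set in the order of all genes, COR1, QCR6, QCR7, QCR8, RIP1 and CYT1 were at or above the percentile of 90.9 on every array from 13.5 h on where they had a value. At 15.5 h RIP1 was higher than 98.7% of genes, CYT1 than 98.4% and QCR6 than 96.0%, while COR1 was higher than 90.9%, after 97.0% at 13.5 h. At 20.5 h COR1 was higher than 98.8% and QCR8 than 91.6%, after 95.9% for QCR8 at 18.5 h. QCR2 and QCR9 were higher than 70.7% and 72.4% of genes at 18.5 h, after 85.2% and 84.0% at 15.5 h. All genes widened over the same interval, with an SD of 0.52 at 15.5 h and 0.92 at 18.5 h on the log2 scale.

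The members that rose past a limit taken from the spread between spots differed between the final 2 steps of the course. From 15.5 to 18.5 h, as glucose ran out, 5 of 8 ratios increased by more than 0.56. That limit is the SD between spots of one gene, combined over the 2 arrays of the step. The 5 were QCR6 by 1.38, QCR7 by 1.22, COR1 by 1.03, QCR8 by 0.88 and RIP1 by 0.58, against 22.5% of all genes. CYT1 changed by 0.32, QCR9 by 0.067 and QCR2 by 0.005, so carriers, core proteins and small subunits were found on both sides of that limit. From 18.5 to 20.5 h, 4 members increased by more than the corresponding 0.58, against 10.8% of all genes, and these were the electron carriers and the core proteins. CYT1 increased by 1.07, COR1 by 1.06, RIP1 by 0.64 and QCR2 by 0.584, the last within rounding of the limit of 0.582. The small subunits did not: QCR9 changed by 0.29, QCR7 by 0.18, QCR6 by -0.13 and QCR8 by -0.46. These steps rest on 1 spot and 1 array at each end. The limits hold lasting differences between spots, which cancel in the step of 1 spot, so they are not the SD of a step. For the last step the limit was above the SD of the steps of all genes, 0.53. The division by place in the last step was seen in the values, leans on QCR2 at the limit and has no test.

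**Figure D4:**
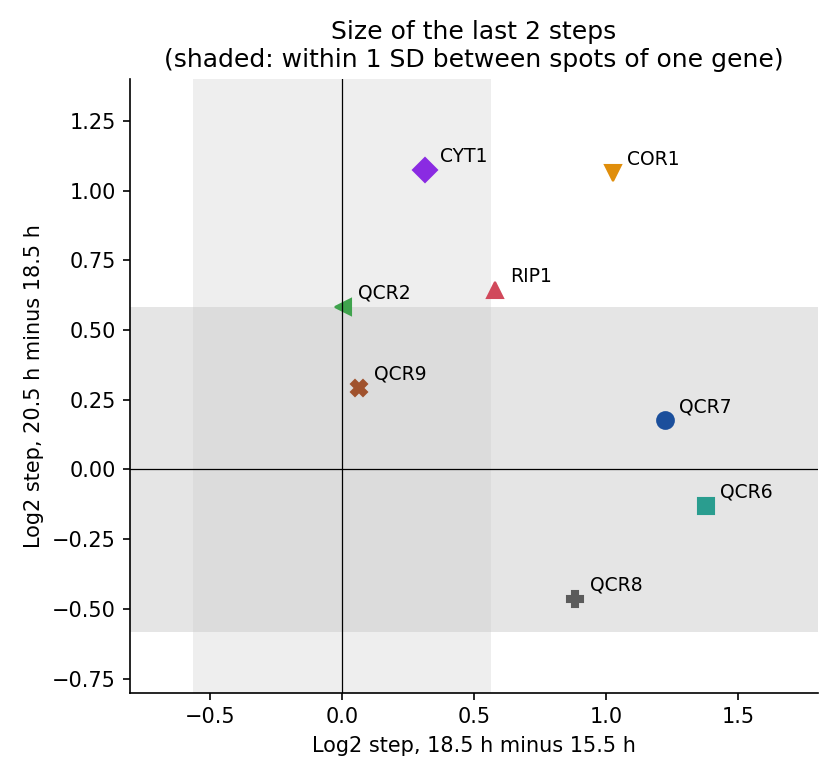
Log2 change of each subunit gene from 15.5 to 18.5 h (horizontal axis) and from 18.5 to 20.5 h (vertical axis), with shading within 1 SD between spots of one gene. CYT1, COR1, RIP1 and QCR2 lie above the horizontal band, QCR2 at its edge, and QCR7, QCR6 and QCR8 lie within it on the right.

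Genes that build the complex were next set beside its subunits. Of 12 genes for bc1 assembly and cytochrome b expression, 3 rose, 0 fell and 9 did not pass, against 19.5% of all genes that rose. Their median fitted change was 0.38, beside 1.93 for the 7 subunit genes of the same fit and 0.020 for all genes. The count was 6 on omitting 15.5 h, where 23.8% of all genes rose, and 2 on omitting 0, 9.5 or 18.5 h, where 13.6%, 14% and 12.3% did. CBP4, a chaperone for newly made cytochrome b, stood apart from the other assembly genes at 2.27 ± 0.21 (limma adjusted p = 1.27e-04). Its ratios were -0.13, -0.16, -0.043, 0.59, 0.84, 2.25 and 2.07 from 0 h to 20.5 h. Like QCR6 and QCR8, CBP4 was highest at 18.5 h and not on the last array. None of these falls reached 0.58, the limit from the spread between spots for that step. MZM1, a matrix chaperone of the Rieske protein, rose by 0.88 ± 0.20 (limma adjusted p = 0.00609), and CYT2, the lyase that attaches heme to cytochrome c1, by 0.65 ± 0.20. The call of CYT2 was lost on omitting 0, 9.5, 11.5 or 18.5 h, and those of CBP4 and MZM1 held whichever array was left out. CBP2, which is needed to splice the cytochrome b transcript, had 0.67 ± 0.24 (adjusted p = 0.0501) and did not pass.

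Among the processing peptidases none passed. The relatives of the core proteins in this list are MAS1 and MAS2, the subunits of the main matrix peptidase. MAS1 and MAS2 had fitted changes of 0.17 ± 0.19 and -0.25 ± 0.21, beside 1.93 for COR1 and 0.69 for QCR2. ICP55 had 0.29 ± 0.20, and OCT1, the intermediate peptidase, 0.999 ± 0.39 with 1 blank (limma adjusted p = 0.0729). OCT1 was at 1.09 at 18.5 h, had a fitted change of 0.64 without that array, and passed on omitting 15.5 h (1.12, limma adjusted p = 0.0129).

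On the side of its substrates, 7 of 9 tested genes in the list of electron donors rose, against 19.5% of all genes, with a median of 2.06. Without the 0 h or the 20.5 h array 4 rose, where 13.6% and 14.7% of all genes did. The 2 that did not pass were DLD1 (0.35 ± 0.29) and URA1 (-0.41 ± 0.20). Their enzymes are not donors to ubiquinone, although the list was drawn up for such donors. The largest change was that of CYB2, the L-lactate dehydrogenase that passes electrons to cytochrome c and not to ubiquinone, which has 1 blank and rose by 2.92 ± 0.50 (limma adjusted p = 0.00226). SDH4 and SDH2, of succinate dehydrogenase, rose by 2.70 ± 0.24 and 2.49 ± 0.24, and NDI1, the internal NADH dehydrogenase, by 2.26 ± 0.22 (limma adjusted p = 1.46e-04). Of 10 genes for ubiquinone synthesis 6 rose, against 19.5% of all genes, with a median of 0.65. The 3 largest were CAT5 at 1.09 ± 0.30, COQ4 at 1.03 ± 0.21 and COQ3 at 0.96 ± 0.32. The call of CAT5 was lost on omitting 0 or 18.5 h, and that of COQ3 on omitting 0, 9.5, 18.5 or 20.5 h. That count was 1 on omitting 0 h, 2 on omitting 9.5 h and 1 on omitting 18.5 h, where 13.6%, 14% and 12.3% of all genes rose. Whichever array was left out, 5 to 7 subunit genes rose, against 12.3% to 23.8% of all genes.

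Downstream of the complex, CYC1 and CYC7, the isoforms of cytochrome c, rose by 1.70 ± 0.27 and 2.05 ± 0.22. On the last 2 arrays CYC1 had 1.09 and 2.04, and CYC7 had 1.94 and 1.53. CYC2 rose by 0.99 ± 0.25, a call lost without the 20.5 h array (limma adjusted p = 0.0515), while CYC3, the heme lyase of cytochrome c, had -0.095 ± 0.23 and did not pass. All 7 tested nuclear genes of cytochrome c oxidase rose, against 19.5% of all genes, with a median of 1.97. COX13 at 2.55, COX5A at 2.29 and COX6 at 2.24 were the largest. All 12 tested genes of the ATP synthase and its regulators rose, against the same 19.5%, with a median of 1.58. Here STF2 at 2.33, ATP20 at 1.92 and ATP7 at 1.67 were the largest. The medians of these lists and of the bc1 subunits were not tested against each other.

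**Figure D5:**
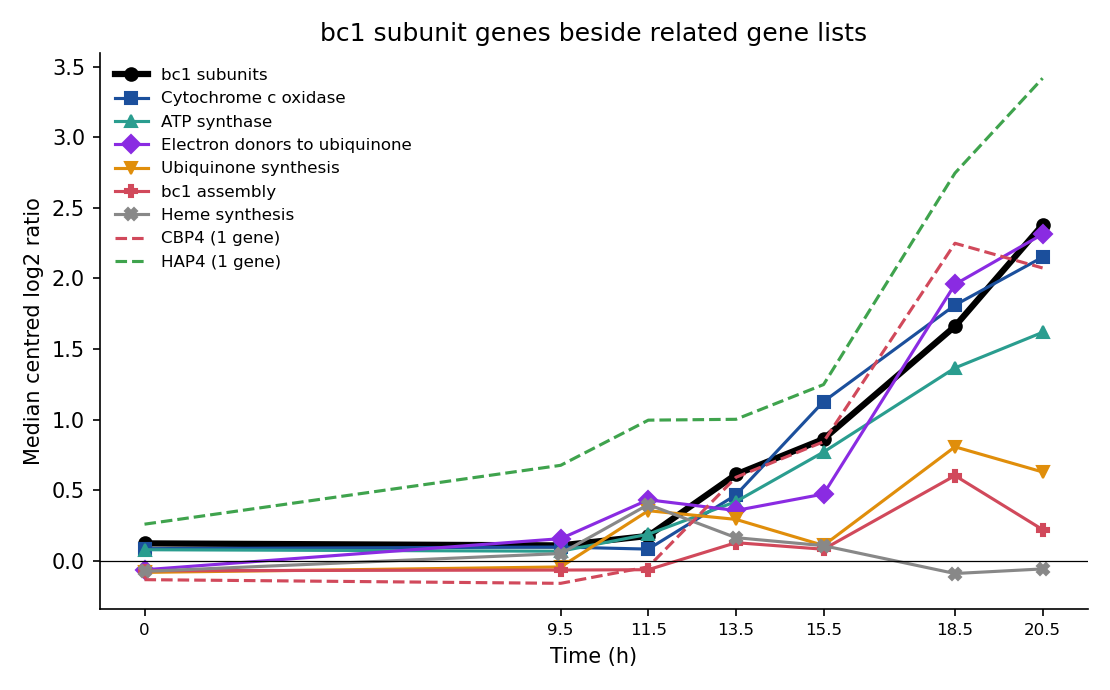
Median centred log2 ratio (vertical axis) against time in hours for the bc1 subunit genes and 6 related gene lists, with the single genes CBP4 and HAP4 as dashed lines. At 20.5 h the medians are 2.38 for bc1 subunits, 2.31 for electron donors, 2.15 for cytochrome c oxidase and 1.62 for ATP synthase, against 0.22 for bc1 assembly and -0.058 for heme synthesis.

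Both cytochromes of the complex and cytochrome c carry heme. Of 7 tested genes for heme synthesis 1 rose and 6 did not pass, with a median of -0.17. Among all genes 19.5% rose, so a count of 1 of 7 does not set this list apart. The gene that rose was HEM14, at 1.05 ± 0.30 (limma adjusted p = 0.0206), and its call was lost without the 0 h, 9.5 h, 18.5 h or 20.5 h array. HEM12 and HEM13 both had -0.45 and did not pass. On omitting 18.5 h HEM12 had -0.71 and passed (limma adjusted p = 0.041), and HEM13 lay between -0.63 and -0.14 on leaving out 1 array.

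HAP4 encodes the activating subunit of the CCAAT-binding complex, which turns on respiratory genes when glucose is low. HAP4 had ratios of 0.26, 0.68, 0.996, 1.002, 1.25, 2.75 and 3.42 from 0 h to 20.5 h, and rose by 2.44 ± 0.33. At 11.5 h, where the bc1 genes had a median of 0.18 and 0.59 at most, HAP4 was at about 2-fold over the reference. It already stood at 0.26 at 0 h, so it was less than 2-fold above its own 0 h value. COR1, the highest bc1 gene at 11.5 h, had 0.091 at 0 h. Of its DNA-binding partners 1 rose. HAP2 had 0.52 ± 0.41 with 1 blank and HAP3 -0.19 ± 0.23, neither of which passed. Omitting 18.5 h turned HAP2 to -0.34. HAP5 rose by 1.47 ± 0.34, but from -1.55 on the 0 h array, which set like against like, and -1.96 at 9.5 h. At 20.5 h it was at 0.024, so it ended level with the reference. Its call was lost without the 0 h and 9.5 h arrays together (0.77, limma adjusted p = 0.131). With ordinary least squares it was lost too (adjusted p = 0.0601). HAP1, which encodes an activator that responds to heme, fell by 0.77 ± 0.23 on the log2 scale (limma adjusted p = 0.0244), a call lost on omitting 0, 9.5 or 18.5 h, the last of which gave a fitted change of -0.49.

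Likeness was measured as the root mean square difference over the 7 arrays from the mean of the 7 subunit genes without a blank, a mean that ran 0.12, 0.12, 0.23, 0.65, 0.91, 1.49 and 1.97. The 8 nearest genes outside the complex were COX8, RRT8, YMR181C, ARA1, RIE1, ATP20, ATP3 and IDH1, at distances of 0.17 to 0.20, where the median of 4800 other genes was 1.08. COX8 is a subunit of cytochrome c oxidase, ATP20 and ATP3 of the ATP synthase, and IDH1 of isocitrate dehydrogenase. These 8 were picked as the nearest of all, so their distances are no yardstick for the members, which were not picked by distance. Single members lay from 0.36 for CYT1 to 0.73 for QCR9 away from the mean of the other 6. For QCR7, 925 other genes were nearer to that mean, and for CYT1 117 were.

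The standard errors and p-values measure scatter about a line over 7 samples of 1 course. They take neighbouring times as independent and do not measure the spread between cultures. Time, density, glucose and array lot cannot be told apart.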

How the data were processed

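The deposited values are log2 ratios of the 2 channels of each array, made by the authors with ScanAlyze 2.41 per the labels. The labels used here state no background correction, dye normalization, spot filter or cause of blanks. The log base was read from the values: 24 lay at 31 places where log2 ratios of small whole numbers fall, against 9.56 from neighbouring places (natural log 45 against 38.7, log10 323 against 309.1). The direction was taken from the order of the channels. With it, 8 glucose-repressed genes had a median of 4.06 and 115 ribosomal protein genes -1.93 at 20.5 h, which is no independent evidence. The lowest correlation between arrays was -0.28.

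Of 6400 probes 5548 had 1 gene symbol, all matched to RefSeq by Entrez ID, and 852 had none. Arrays held 6048 to 6342 values, and the number of arrays limits the precision. Arrays were centred on their medians (deposited medians -0.033 to 0.216), spots of a gene averaged (75 genes), and genes with 7 values regressed with limma 3.58.1 (R 4.3.3, lmFit and eBayes) on the share of glucose consumed, after a test on simulated data. P-values were adjusted over all genes by Benjamini-Hochberg, with a threshold of 0.05. Genes with a blank came from a fit of 5456 genes with at least 5 values.

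The members and lists were chosen with earlier results of these data known. Named genes were the members, the 3 largest changes of each related list (NDI1 as the third with no blank), every gene of the short lists (HAP, cytochrome c, peptidases) and the 8 most alike genes. CYT2, CBP4's place among the assembly genes, the division of the last steps and the grouping of QCR2 with QCR9 were singled out after their values were seen. Promoter motifs were planned and not searched, as no sequences were used here. Alternatives covered centring, covariate, spread, blanks, spots and arrays left out.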

Additional observations from a re-analysis of the deposited data

How the results depend on the processing

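Under 16 alternatives for each complete member and 14 for QCR6 the members kept a positive change, and 105 of 126 values kept their side of the threshold. Of the 21 that lost it, 18 belonged to QCR2 or QCR9, and QCR6, QCR8 and CYT1 lost it with hours as covariate. With hours in place of glucose 3 of 7 members rose, 18 genes of the related lists rose and 0 fell, where 5.53% of all genes rose, against 19.5% with glucose. With log2 OD in place of glucose 0 of those genes fell. On omitting the first 2 arrays together 26 of 71 related genes rose and 0 fell, where 7.82% of all genes rose. With all arrays 41 of 68 rose and 1 fell, where 19.5% and 19% of all genes did. Leaving out 1 array gave 5 to 7 members risen, 31 to 45 related genes risen and 0 to 1 fallen, where 12.3% to 23.8% of all genes rose. Relative to the 0 h array 0 members were 2-fold higher at 13.5 h. Leaving out 1 array moved the slope of COR1 minus QCR2 between 0.91 and 1.48, that of QCR7 minus QCR2 between 1.58 and 1.94 and that of CYT1 minus RIP1 between -0.09 and 0.28. The cause was not tested. As deposited, without centring, the median gene changed by 0.20, against 0.020 after centring, and 1223 genes rose and 708 fell, against 936 and 913. No paired analysis was possible because each time point is 1 array. Signal levels were not analysed here, so a dim spot cannot be told from a small change.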

Other observations

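The 8 measured subunit genes lie on 8 different chromosomes. Their 16 nearest protein-coding neighbours in the RefSeq order of genes (assembly R64) did not overlap them, and 15 of these were tested. Of the 15, 4 rose and 2 fell, where 19.5% of all genes rose and 19% fell. The neighbours that rose were AQY1 beside QCR2 (1.08 ± 0.21), YEL023C beside RIP1 (0.87 ± 0.26), YNG1 beside CYT1 (0.77 ± 0.19) and HAL5 beside QCR8 (0.62 ± 0.20). HLR1 beside QCR7 (-0.78 ± 0.22) and PHO4 beside QCR6 (-0.59 ± 0.19) fell (limma, Benjamini-Hochberg adjusted p under 0.05 over all genes). AQY1 had the larger fitted change of the pair with QCR2, and the other neighbours named lay well below the member beside them. The calls of AQY1 and YNG1 held whichever array was left out, and each of the other 4 was lost without at least 1 array. These genes were named after their values were seen.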
